A study of Rattus norvegicus with 44 samples.

Results

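The effect of compound R1 on rat liver at 100 mg/kg/day was compared between 336 h and 24 h of dosing, as the difference (R1 100 minus vehicle at 336 h) minus (R1 100 minus vehicle at 24 h). Its members are 14 of the 44 arrays of the series, chosen by their labels: 4 R1 100 livers and 4 vehicle livers of study 2 (336 h), and 3 R1 100 livers and 3 vehicle livers of study 1 (24 h). All animals were male Wistar rats, 8 weeks old, of no stated genetic modification, dosed each day by gavage with R1 or, as vehicle, with citric acid buffer, and killed 24 h after their final dose. RNA from a piece of the left lateral lobe was hybridised to Affymetrix rat arrays, 1 array per sample. The vehicle arrays of study 3 (336 h, n = 5) and study 4 (24 h, n = 4) and the R1 20 arrays of study 2 (336 h, 20 mg/kg/day, n = 5) are set beside these groups. R1 is known only by its code name. Arrays of a group carry replicate numbers, but no label states that each came from its own animal, so the p-values rest on a spread between samples that may be technical in part. Because each time was run in a study of its own, time and study cannot be told apart in this difference.

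Several transcription programmes of the liver bear on the genes below. PPAR-alpha is the nuclear receptor that turns on fatty acid oxidation in mitochondria and peroxisomes when fatty acids reach the hepatocyte, as in fasting, and SREBP proteins turn on cholesterol and fatty acid synthesis when sterols are scarce or after feeding. CAR and PXR sense foreign compounds and induce cytochromes P450, transporters and conjugating enzymes, and NRF2 senses electrophiles and oxidants and induces glutathione enzymes. In the male rat, pulses of growth hormone keep a group of male-typical liver genes on.

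Signal is the deposited array intensity, in arbitrary units. Effects are log2 differences ± SE on log2(signal + 2.89), fitted with limma, and a gene is termed called where its p, adjusted by Benjamini-Hochberg, was below 0.05. A positive difference of effects means that the effect of R1 100 was higher at 336 h than at 24 h. The offset shrinks changes of dim genes, so sizes are uncertain wherever a group lies below 9.17, the level a probe set had to reach in at least 1 group to be tested. Arrays of a group correlated at 0.938 to 0.974. The hepatocyte gene Alb, for albumin, lay between 8854 and 12597 on all 14 arrays, and the summed signal of 11 hepatocyte markers was 60978 to 63308 in R1 100 and 63714 to 67126 in vehicle livers at 336 h, and 63121 to 64257 in R1 100 and 67594 to 68410 in vehicle livers at 24 h.

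The effect of R1 100 differed between 336 h and 24 h for 337 of 6361 probe sets (5.3%), 138 higher and 199 lower. Per gene, with the brightest probe set standing for each, 188 of 3696 were called (5.09%), 95 higher (2.57%) and 93 lower (2.52%). Most of these genes were called against vehicle at 1 time only: 105 at 336 h only (51 with a higher and 54 with a lower difference) and 46 at 24 h only (24 higher and 22 lower). Effects called at both times ran in opposite directions for 13 genes, and in the same direction with a larger size at 336 h for 5. For 19 genes the difference was called and neither effect was. Beside this, R1 100 differed from vehicle in 656 probe sets (10.3%) at 336 h and 407 (6.4%) at 24 h, or 368 genes (9.96%) and 221 genes (5.98%). By direction, 4.95% of genes were higher and 5.01% lower at 336 h, and 3.19% higher and 2.79% lower at 24 h. The 24 h count was 263 without study 1 vehicle replicate 1 and 271 without study 1 R1 100 replicate 1.

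**Figure D1:**
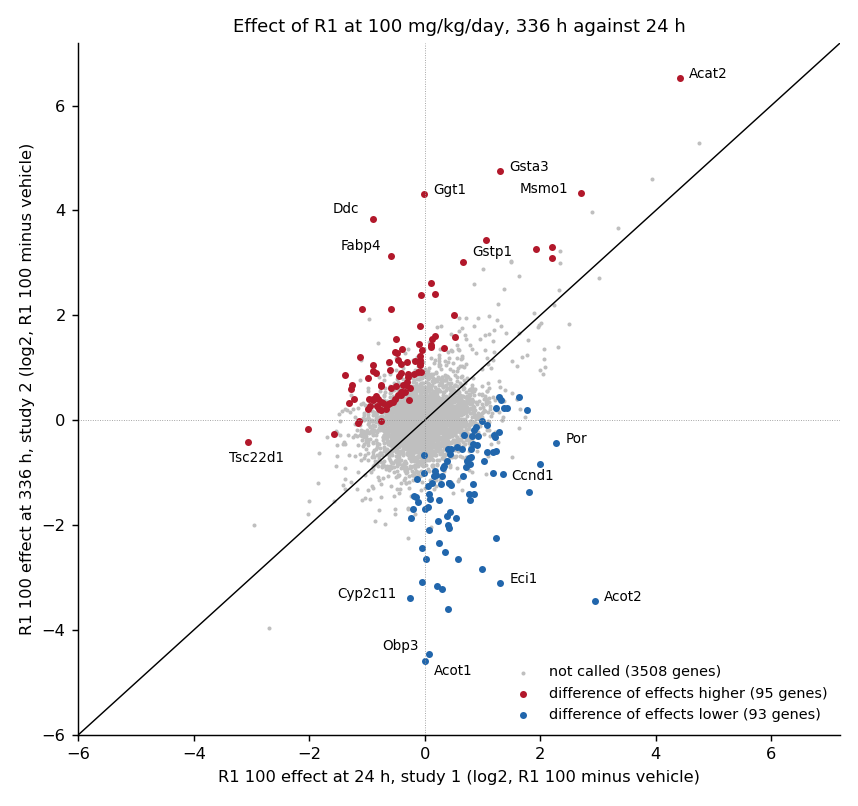
Effect of R1 100 at 336 h (vertical axis, log2, R1 100 minus vehicle) against its effect at 24 h (horizontal axis, same unit), 1 point per gene, with the 95 genes called higher in red, the 93 called lower in blue and the line of equal effects in black. Ggt1, Fabp4 and Obp3 lie near 0 at 24 h and far from it at 336 h, Por and Tsc22d1 lie near 0 at 336 h, and Acot2 and Eci1 are above 0 at 24 h and below it at 336 h.

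A difference of effects can lie in the R1 100 livers, in the vehicle livers or in both, and here many genes differed between the vehicle livers of the 2 studies. Vehicle of study 2 differed from vehicle of study 1 in 900 probe sets (14.1%) and 493 genes (13.3%), and R1 100 livers of study 2 differed from those of study 1 in 996 probe sets (15.7%) and 550 genes (14.9%). The vehicle count was 598 without study 1 vehicle replicate 2. Among the 188 called genes, 98 had a larger gap between the vehicle groups than between the R1 100 groups. The vehicle gap was called for 105 of the 188 and the R1 100 gap also for 105, where 13.3% and 14.9% of all genes were. The difference of effects is the R1 100 gap minus the vehicle gap. Genes picked for a large difference therefore show called gaps more often by construction, and no conclusion is drawn from this excess. The vehicle livers of study 2 lay above every other vehicle array of the series for 126 of 3696 genes (3.41%). They lay below all of them for 149 (4.03%). Such counts are given for study 2 only, so they are not set against those of another study. With vehicle of study 3, also dosed for 336 h, in place of vehicle of study 2, 78 of the 188 genes were still called in the same direction. Such a difference mixes studies, so it is given beside the values and not instead of them. With vehicle of study 4 in place of vehicle of study 1, 133 of 188 were still called the same way, and with both replaced 70.

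**Figure D2:**
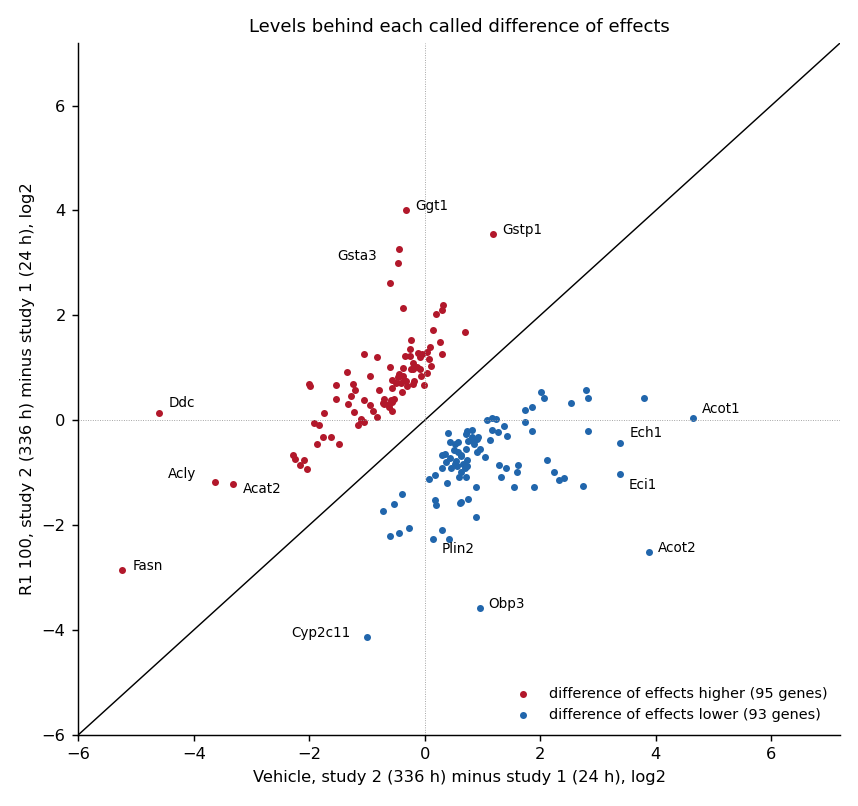
For the 188 called genes, the gap between the R1 100 groups (vertical axis, study 2 minus study 1, log2) against the gap between the vehicle groups (horizontal axis, same unit), red for a higher and blue for a lower difference of effects, with the line of equal gaps in black. Ggt1, Gsta3, Obp3 and Plin2 are separated mainly along the vertical axis, where the R1 100 livers differ, and Ddc, Fasn, Acot1 and Ech1 mainly along the horizontal axis, where the vehicle livers differ.

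Fatty acid oxidation genes were among those with the lowest differences. Of 29 tested genes in a list of PPAR-alpha targets and fat oxidation enzymes, 21 were lower and 0 higher, where 2.52% of all genes were lower, and the median difference was -1.51, against 0.02 over all genes. Median effects of the list were -1.40 at 336 h and 0.25 at 24 h, and the vehicle gap (study 2 minus study 1) had a median of 0.98, with 19 of 29 members called higher in vehicle of study 2, where 6.52% of all genes were. In bulk liver, fewer cells of a type and less RNA per cell cannot be told apart. Eci1, an isomerase that prepares unsaturated fatty acids for mitochondrial oxidation, had a signal of 505.7, 416.1, 685.2 and 515.1 in R1 100 livers at 336 h, against 4802, 4766, 4045 and 4455 in vehicle livers. After 24 h the signal was 1032, 1391 and 847.8 in R1 100 livers and 499.9, 479.8 and 331 in vehicle livers. The groups did not overlap at either time, with R1 100 below vehicle at 336 h and above it at 24 h. Its effects were -3.10 ± 0.19 and 1.31 ± 0.22, and the difference was -4.41 ± 0.30 (adjusted p = 8.9e-15).

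Ech1, which serves the same pathway in mitochondria and peroxisomes, showed the same order of groups. Its signal was 588.4, 662, 486.4 and 535.2 in R1 100 livers at 336 h, against 3628, 3753, 4861 and 3934 in vehicle livers, and 635.8, 1054 and 651.7 in R1 100 livers at 24 h, against 348.1, 351.1 and 449.7 in vehicle livers. The R1 100 livers of the 2 studies overlapped, while the vehicle livers of study 2 were all above those of study 1, and the difference of effects was -3.82 ± 0.24 (adjusted p = 1.71e-15). Acot2, an acyl-CoA thioesterase of mitochondria, had 14.6, 9.3, 1.24 and 16.3 in R1 100 and 55.3, 209.2, 114.2 and 164.8 in vehicle livers at 336 h. At 24 h the values were 43, 70.7 and 79.5 in R1 100 and 2.08, 0.923 and 29.2 in vehicle livers. Again R1 100 lay below all vehicle values at 336 h and above them at 24 h. Its difference, -6.40 ± 0.87 (adjusted p = 1.83e-06), was the lowest of all genes, with several arrays below the level for testing, so its size is uncertain. Hacl1, a peroxisomal lyase of branched fatty acids, was also called in opposite directions, at -2.24 ± 0.31 after 336 h and 1.24 ± 0.36 after 24 h, with a difference of -3.48 ± 0.48 (adjusted p = 2.16e-06).

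Other members fell at 336 h and were not called at 24 h. Cyp4a1, a fatty acid omega-hydroxylase and standard PPAR-alpha target, averaged 291.3 ± 144.7 in R1 100 and 2534 ± 87.2 in vehicle livers at 336 h (SD, n = 4 each), and 595.4 ± 167.9 and 473.8 ± 27.8 at 24 h (SD, n = 3 each), with a difference of -3.51 ± 0.62 (adjusted p = 0.000181). Cpt1a, which carries fatty acids into mitochondria, averaged 241.1 ± 96.9 and 1429 ± 122.3 at 336 h, and 468.6 ± 145 and 312.1 ± 103.7 at 24 h, in the same order, and its difference was -3.22 ± 0.43 (adjusted p = 1.15e-06). Ehhadh, the peroxisomal bifunctional enzyme, averaged 187.9 ± 52.1 and 1574 ± 213 at 336 h, and 217.5 ± 73.3 and 218.2 ± 21.9 at 24 h (difference -3.03 ± 0.36, adjusted p = 8.84e-08). In each of these, R1 100 and vehicle livers overlapped at 24 h and were fully separated at 336 h. Ephx2, an epoxide hydrolase of peroxisomes and cytosol, had a difference of -4.00 ± 0.68 (adjusted p = 9.78e-05), and Acot1, the cytosolic thioesterase, one of -4.59 ± 0.67 (adjusted p = 6.53e-06). Acot1 lay at 89.1 to 133 in vehicle livers of study 2 and at 5.54 or less in the other 3 groups. Cyp4a genes and the pair Acot1 and Acot2 are near-identical within each family, so their values are uncertain as to the member.

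The high level behind these differences was in study 2, in vehicle livers and, to a varying degree, in R1 20 livers. R1 20 livers averaged 3618 for Eci1, 709.5 for Hacl1 and 139.8 for Acot1, against 4517, 764.8 and 107.7 in vehicle livers of study 2. For Cyp4a1, Cpt1a and Ehhadh they averaged 1462, 820 and 879.4, against 2534, 1429 and 1574. For Ephx2 and Acot2 they averaged 318.9 and 93.9, against 440.7 and 135.9. Ech1 averaged 4044 in vehicle livers of study 2, against 383 in study 1, 249.8 in study 3 and 291.2 in study 4, and in study 2 it was 4044 with vehicle, 3285 ± 464.2 at R1 20 (SD, n = 5) and 568 at R1 100. For Ech1 the R1 100 livers at 336 h thus lay closer to the vehicle livers of the other studies than to those of their own. Against vehicle of study 3, the differences of Eci1, Ech1, Cyp4a1, Cpt1a, Ehhadh, Hacl1, Ephx2, Acot1 and Acot2 were not called (adjusted p from 0.0506 for Acot2 to 0.979 for Acot1). Those of Ech1, Cpt1a and Acot1 turned to 0.18, 0.06 and 0.05. With that vehicle 8 of the 29 list members were called lower (median -0.74), where 113 of 3696 genes were. With both vehicles replaced 5 of the 29 were, where 184 of 3696 genes were, and Eci1 was called (-1.37, adjusted p = 0.00072). The R1 100 livers differed too: 10 of the 29 were called lower in study 2 than in study 1 (median -0.54), where 6.9% of all genes were.

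**Figure D3:**
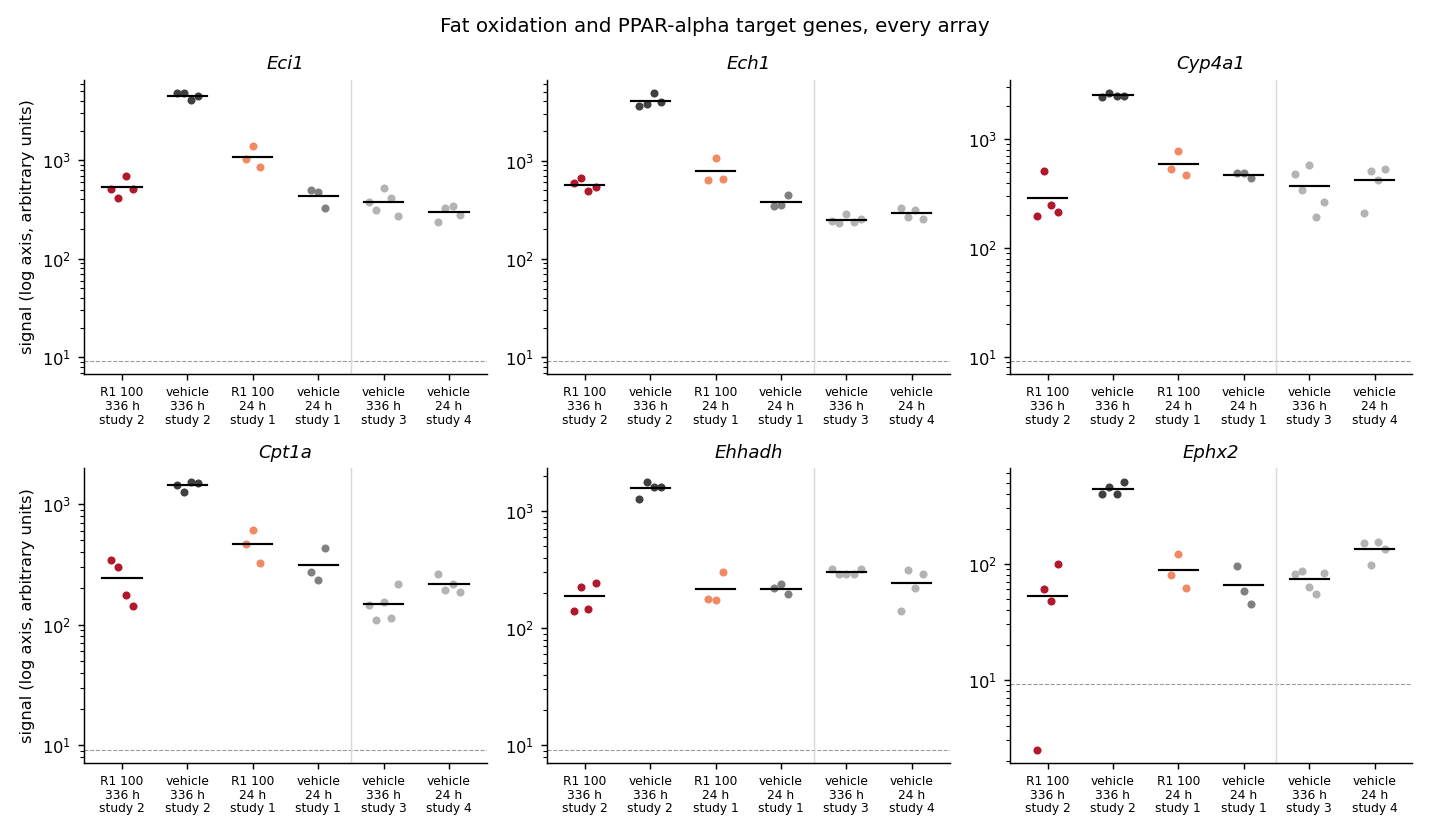
Signal of 6 fat oxidation and PPAR-alpha target genes on each array (log axis, arbitrary units), with black bars for group means and a dashed line at 9.17. In each panel the 4 vehicle livers of study 2 are the highest of the 6 groups, and R1 100 livers at 336 h lie closer to the vehicle livers of studies 1, 3 and 4, with Ech1 above all of those and Ehhadh below all of study 3.

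Glutathione enzymes led the genes that rose at 336 h and were not called at 24 h. Ggt1, gamma-glutamyltransferase, which breaks down glutathione at the cell surface and is low in the adult rat hepatocyte, had a signal of 143, 56.2, 94.6 and 92.1 in R1 100 livers at 336 h, against 2.37, 1.75, 2.4 and 1.03 in vehicle livers. In 24 h livers it was 2.04, 4.24 and 2.88 in R1 100 and 3.98, 3.1 and 2.17 in vehicle livers. Every R1 100 liver at 336 h stood above every other array of the 4 groups. Its difference was 4.33 ± 0.40 (adjusted p = 1.45e-10), with an effect of -0.01 ± 0.30 at 24 h. It was called with each vehicle and without each array, and the other 3 groups lay below the level for testing, so its size is uncertain.

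Among glutathione transferases, which attach glutathione to electrophiles, 5 of 15 tested members were higher and 0 lower, where 2.57% of all genes were higher. The list's median difference was 0.85, all 15 differences were above 0, and median effects were 0.67 at 336 h and -0.17 at 24 h. Gstp1, the pi class enzyme used as a marker of altered hepatocyte foci in the rat, had 1173, 1099, 1335 and 1533 in R1 100 and 133.9, 156.4, 161.8 and 170.8 in vehicle livers at 336 h. The 24 h values were 115.2, 125.8 and 83.3 in R1 100 and 64.5, 67 and 67.7 in vehicle livers. R1 100 was above vehicle without overlap at both times, but the 24 h effect was not called (0.66 ± 0.28, adjusted p = 0.191), and the difference was 2.36 ± 0.37 (adjusted p = 3.12e-05). Gsta3, an alpha class enzyme, had 1060, 1628, 1580 and 1427 in R1 100 and 60.6, 40.4, 31 and 75.5 in vehicle livers at 336 h, and 287.3, 81.4 and 222.2 in R1 100 and 88.4, 36.5 and 99.5 in vehicle livers at 24 h. Only the 336 h groups were separated, and the difference was 3.46 ± 0.61 (adjusted p = 0.000171).

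Smaller rises completed the called members. Gsta4, which detoxifies lipid peroxidation aldehydes, averaged 1335 ± 413.2 in R1 100 and 378.6 ± 90.7 in vehicle livers at 336 h, and 280.8 ± 38.5 and 305 ± 76.6 at 24 h in the same order (difference 1.89 ± 0.28, adjusted p = 9.52e-06). Mgst2, a microsomal member, averaged 798.9 ± 124.7 and 262.8 ± 42.8 at 336 h, and 471.8 ± 43.1 and 326.1 ± 36.6 at 24 h (difference 1.06 ± 0.27, adjusted p = 0.00966). Gstk1, the mitochondrial and peroxisomal kappa class member, averaged 1056 ± 174.9 and 667.8 ± 32.3 at 336 h, and 553.7 ± 225.4 and 740.3 ± 127.4 at 24 h (difference 1.14 ± 0.26, adjusted p = 0.00419, for 1 of its 2 probe sets), a call lost in a fit of these 4 groups alone. With vehicle of study 3 Mgst2 was not called (0.60, adjusted p = 0.17), while Gstp1 (2.72), Gsta3 (2.20) and Gsta4 (1.83) still were. Gsta genes resemble each other closely, so a value may hold signal of a relative.

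The promoters of Gstp1 and Gsta3 are shown because these were the called glutathione transferases whose windows hold the letters TGAC, then any 3 bases, then GCA, the core of the antioxidant response element to which NRF2 binds. The window runs from 250 bases before to 50 bases after the annotated start (RefSeq, GRCr8), both strands were searched, and the match is in capitals. Gstp1 is on the minus strand at chr1:210769656-210769955 and Gsta3 on the plus strand at chr9:31154739-31155038.
Gstp1: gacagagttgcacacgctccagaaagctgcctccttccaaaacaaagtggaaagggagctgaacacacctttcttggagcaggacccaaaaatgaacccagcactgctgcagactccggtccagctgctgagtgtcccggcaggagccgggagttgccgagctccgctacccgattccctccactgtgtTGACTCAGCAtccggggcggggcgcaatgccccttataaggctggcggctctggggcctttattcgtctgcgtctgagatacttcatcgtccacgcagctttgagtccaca
Gsta3: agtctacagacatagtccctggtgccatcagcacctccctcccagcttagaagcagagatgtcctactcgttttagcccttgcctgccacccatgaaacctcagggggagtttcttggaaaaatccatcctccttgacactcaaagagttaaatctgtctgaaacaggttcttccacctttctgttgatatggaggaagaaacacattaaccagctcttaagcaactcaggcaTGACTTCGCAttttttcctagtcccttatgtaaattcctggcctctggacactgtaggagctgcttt
The match, TGACTCAGCA in Gstp1 and TGACTTCGCA in Gsta3, began 61 and 17 bases before the start. These letters occurred in 1003 of 33469 promoter windows of the annotation (3%), in 3 of 12 tested glutathione transferases with a window and in 2 of the 4 called ones with a window. They were not found in the windows of Gsta4, Gstk1 and Ggt1. A match is a description of the letters only.

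Fabp4 and Sri also rose at 336 h and were not called at 24 h. Fabp4, the fatty acid carrier best known from fat cells and macrophages, had 61.3, 60, 11.6 and 45.2 in R1 100 livers at 336 h, against 1.41, 1.84, 2.14 and 1.7 in vehicle livers. After 24 h it lay between 0.85 and 2.18 in R1 100 and between 1.39 and 9.6 in vehicle livers. R1 100 livers at 336 h were above all others, replicate 3 least so, and the difference was 3.72 ± 0.69 (adjusted p = 0.000362). The summed signal of 5 Kupffer cell and macrophage markers was 819.1 to 1292 in R1 100 and 1083 to 1790 in vehicle livers at 336 h, and 1118 to 1263 in R1 100 and 974.3 to 1720 in vehicle livers at 24 h. None of the 5 had a called difference of effects. At 336 h 1 was called higher and 2 lower in R1 100 livers, where 4.95% and 5.01% of all genes were. At 24 h none of the 5 was called. Their part in the rise of Fabp4 was not tested. Sri encodes sorcin, a calcium-binding protein. It had 349.3, 262.4, 175.6 and 141.9 in R1 100 and 36.6, 40, 25.1 and 33.1 in vehicle livers at 336 h, and lay between 38.3 and 64.3 in all livers at 24 h (difference 2.52 ± 0.36, adjusted p = 6.11e-06). Fabp5, a related fatty acid carrier, differed by 2.70 ± 0.52 (adjusted p = 0.000501), where the R1 100 livers of both times overlapped (320.8 to 591.4 at 336 h and 197.2 to 406.9 at 24 h) and vehicle of study 2 (83 to 129) lay below vehicle of study 1 (317.8 to 542.9). Against vehicle of study 3 it was not called (1.55, adjusted p = 0.0511).

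**Figure D4:**
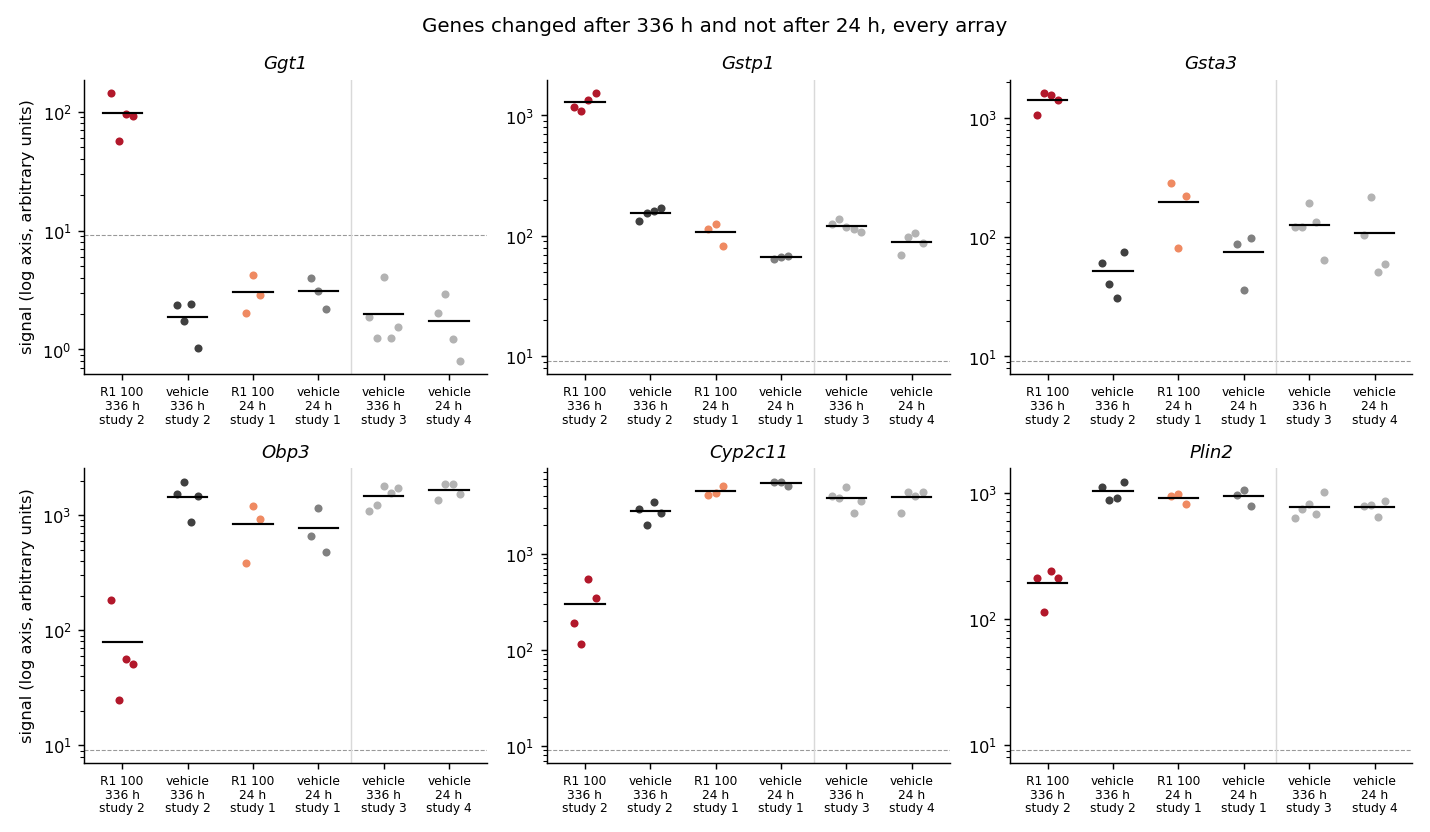
Signal of 6 genes changed by R1 100 after 336 h and not called after 24 h, on each array (log axis, arbitrary units), with black bars for group means and a dashed line at 9.17. R1 100 livers at 336 h are above all other groups for Ggt1, Gstp1 and Gsta3 and below all other groups for Obp3, Cyp2c11 and Plin2.

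Obp3 and Cyp2c11, both male-typical liver genes, fell at 336 h and were not called at 24 h. Obp3, an alpha-2u-globulin of the lipocalin family that male rat liver secretes, had 182, 24.9, 56.4 and 51.3 in R1 100 livers at 336 h, against 1522, 1949, 867.6 and 1469 in vehicle livers. At 24 h it had 387, 1213 and 922.6 in R1 100 and 659.7, 1163 and 483.2 in vehicle livers. R1 100 livers at 336 h lay below all others, and the 24 h groups overlapped. Its difference was -4.53 ± 0.68 (adjusted p = 1.09e-05, 1 of 2 probe sets). Cyp2c11, the main male-specific cytochrome P450 of rat liver, had 190.8, 114.2, 546.6 and 344 in R1 100 and 2924, 2009, 3412 and 2639 in vehicle livers at 336 h, and 4114, 4304 and 5099 in R1 100 and 5585, 5520 and 5062 in vehicle livers at 24 h. The overlap at 24 h was narrow and that effect was not called (-0.26 ± 0.42), and the difference was -3.13 ± 0.55 (adjusted p = 0.000162, 3 of 3 probe sets). Cyp2c7, a retinoid-metabolising P450 taken here from the list of CAR and PXR targets and not from that of male-predominant genes, averaged 1533 ± 210.7 in R1 100 and 5198 ± 797.6 in vehicle livers at 336 h, and 4614 ± 1251 and 3350 ± 88.4 at 24 h (difference -2.19 ± 0.33, adjusted p = 1.09e-05).

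Of 11 tested genes on the whole list of male-predominant genes, 2 were lower and 1 higher, where 2.52% of all genes were lower and 2.57% higher, with a median difference of 0.02. Car3, carbonic anhydrase 3 of the same list, showed no called difference (0.04, 95% interval -1.71 to 1.80), and it averaged 150.4 ± 190.4 in R1 100 and 276.5 ± 115.3 in vehicle livers of study 2, and 1005 ± 468.2 and 2872 ± 874.3 in those of study 1. Of 10 genes of the growth hormone and IGF axis, 2 were lower and 0 higher (median -0.14). These were Socs2, a growth hormone-induced inhibitor of its own receptor's signal, at 13.4 ± 6.43 in R1 100 and 45.8 ± 37.1 in vehicle livers after 336 h, and 34.8 ± 9.97 and 7.99 ± 3.52 after 24 h (difference -3.17 ± 0.75, adjusted p = 0.00561), and Igfbp3, the main IGF carrier of blood (difference -1.63 ± 0.39, adjusted p = 0.00711, 1 of 2 probe sets). Vehicle of study 4 in place of vehicle of study 1 ended both calls (adjusted p = 0.662 and 0.067), while Obp3, Cyp2c11 and Cyp2c7 were called with each vehicle and without each array. Igfals, which binds IGF complexes, fell at both times, with effects of -0.87 at 336 h and -0.90 at 24 h, and the difference of 0.03 had a 95% interval of -0.74 to 0.79.

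Of 14 lipid droplet and lipoprotein genes, 3 were lower and 0 higher (median -0.47), where 2.52% of all genes were lower and 2.57% higher. Plin2, which coats lipid droplets, had 210.7, 113, 240.6 and 211.8 in R1 100 livers at 336 h, against 1123, 881.3, 917.4 and 1225 in vehicle livers. At 24 h it had 939.5, 979.3 and 811.4 in R1 100 and 957.7, 1063 and 794.7 in vehicle livers. All groups but R1 100 at 336 h shared 1 range, and the difference was -2.40 ± 0.37 (adjusted p = 1.44e-05, 1 of 2 probe sets). Apoa4, an apolipoprotein of chylomicrons and HDL, averaged 138.5 ± 21.6 in R1 100 and 874.2 ± 49.2 in vehicle livers at 336 h, and 724.2 ± 346.5 and 686.7 ± 253.9 at 24 h (difference -2.67 ± 0.62, adjusted p = 0.00446). Both calls remained with each vehicle and without each array.

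Cholesterol synthesis genes rose at both times, 6 of 6 before squalene and 7 of 8 from squalene on. Of all genes, 4.95% were called higher at 336 h and 3.19% at 24 h. A few of the cholesterol synthesis genes rose by more at 336 h. Before squalene, 3 of 6 differed with a larger effect at 336 h (Acat2, Fdps and Fdft1) and 0 with a smaller one. From squalene on 1 of 8 had a larger effect at 336 h (Msmo1). Of all genes, 2.57% had a higher and 2.52% a lower difference. Median effects before squalene were 3.49 at 336 h and 2.77 at 24 h, and from squalene on 2.45 and 2.42. Acat2, an acetoacetyl-CoA thiolase at the start of the pathway, had 1263, 322.5, 912.4 and 780.4 in R1 100 livers at 336 h, against 1.16, 5.9, 9.49 and 6.34 in vehicle livers. In study 1, at 24 h, it had 2087, 1507 and 1606 in R1 100 and 104, 82.9 and 53.3 in vehicle livers. The R1 100 level was thus lower at 336 h than at 24 h while the effect was larger, and vehicle of study 2 lay further below vehicle of study 1 than R1 100 did. Effects were 6.53 ± 0.34 and 4.42 ± 0.40, with a difference of 2.11 ± 0.52 (adjusted p = 0.00902, 1 of 2 probe sets), and the dim vehicle of study 2 leaves its size uncertain. The call was lost with another offset and with the mean over its probe sets.

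Msmo1, a sterol methyl oxidase, showed the same arrangement at higher signal. It had 2639, 1422, 2186 and 2037 in R1 100 and 81.7, 81.1, 123.6 and 112.8 in vehicle livers at 336 h, and 3160, 3078 and 3412 in R1 100 and 482, 413.6 and 598.5 in vehicle livers at 24 h. None of the 4 groups overlapped, and the difference was 1.63 ± 0.33 (adjusted p = 0.000955, 1 of 2 probe sets). Fdps, farnesyl diphosphate synthase, averaged 4136 ± 1342 and 416 ± 104.9 at 336 h, and 6615 ± 513.2 and 1748 ± 195.6 at 24 h (difference 1.34 ± 0.34, adjusted p = 0.00932). Fdft1, squalene synthase, averaged 1376 ± 258.1 and 136.1 ± 20.6 at 336 h, and 2589 ± 114.1 and 565.7 ± 75.7 at 24 h (difference 1.11 ± 0.31, adjusted p = 0.0229, 1 of 4 probe sets). Fdft1 lost its call without study 2 vehicle replicate 1, study 1 R1 100 replicate 2 or study 1 vehicle replicates 1 or 2 (adjusted p up to 0.0774).

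Other steps were not called. Idi1, isopentenyl diphosphate isomerase, rose by 5.28 ± 0.32 at 336 h and 4.75 ± 0.37 at 24 h, and the interval of the difference was -0.46 to 1.52. For Sqle, squalene epoxidase, the interval was -0.31 to 1.64, for Cyp51, lanosterol demethylase, 0.24 to 1.52, and for Lss, lanosterol synthase, -0.94 to 0.33. Vehicle of study 3 in place of vehicle of study 2 turned the 4 called sterol genes below 0 (Acat2 -1.29, Fdps -0.61, Fdft1 -0.53, Msmo1 -0.73, adjusted p = 0.124 to 0.324). With that vehicle Sqle, Cyp51 and Lss had a smaller effect at 336 h (differences -1.83, -1.47 and -1.39, adjusted p = 0.0106, 0.00168 and 0.00268). The direction of the sterol difference thus depended on which vehicle was taken. In R1 100 livers, 5 of 6 and 7 of 8 list members were called lower in study 2 than in study 1. Of all genes, 6.9% were. Vehicle livers of study 2 were also called lower than those of study 1, for 5 of 6 and 6 of 8 members. Of all genes, 6.82% were. In both gaps time and study cannot be told apart.

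Fatty acid synthesis genes had the same vehicle gap. Of 12 tested members, 3 were higher and 0 lower, where 2.57% and 2.52% of all genes were. In vehicle of study 2, 8 were called lower than in vehicle of study 1, where 6.82% of all genes were. Fasn, fatty acid synthase, had 77.8, 16.8, 91.7 and 99.2 in R1 100 livers at 336 h, against 2.81, 3.3, 2.77 and 2.59 in vehicle livers. After 24 h it had 479.8, 417.1 and 458.6 in R1 100 and 333.8, 265.4 and 110.7 in vehicle livers. R1 100 was above vehicle at both times on very different levels, but the 24 h effect was not called (1.06 ± 0.37, adjusted p = 0.0773). Vehicle of study 2 lay below 9.17, so the size of the change is uncertain. The difference was 2.38 ± 0.49 (adjusted p = 0.00128). It was not called with vehicle of study 4 (1.04, adjusted p = 0.167) and turned to -1.10 with vehicle of study 3 (adjusted p = 0.168).

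Acly, which supplies cytosolic acetyl-CoA, averaged 620.9 ± 283.9 and 109.4 ± 16.1 at 336 h, and 1332 ± 268.6 and 1559 ± 796.2 at 24 h, R1 100 before vehicle (difference 2.45 ± 0.46, adjusted p = 0.000477). The third called member, Srebf1, a regulator of lipid synthesis genes, was not called at 336 h (24.2 ± 8.64 and 27.2 ± 7.69) and fell at 24 h, where it averaged 24.4 ± 2.81 in R1 100 and 109.9 ± 23 in vehicle livers. Its difference of 1.86 ± 0.52 (adjusted p = 0.0231) lost its call without study 2 R1 100 replicate 2, study 2 vehicle replicate 2, study 1 R1 100 replicate 3 or study 1 vehicle replicates 1 or 2 (adjusted p up to 0.072). Tkt, transketolase of the pentose phosphate pathway, averaged 432.8 ± 180.6 and 97 ± 1.77 at 336 h, and 665.5 ± 24.3 and 479.9 ± 132.8 at 24 h (difference 1.50 ± 0.36, adjusted p = 0.00633).

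Ddc, dopa decarboxylase, had the highest difference of all genes. Its signal was 69.2, 82.5, 92 and 138.1 in R1 100 livers at 336 h, against 3.94, 4.39, 3.18 and 3.62 in vehicle livers, and 73.6, 90 and 88.2 in R1 100 livers at 24 h, against 167.7, 148.2 and 160.3 in vehicle livers. The R1 100 livers of the 2 times overlapped, and the effect was 3.84 ± 0.22 at 336 h and -0.90 ± 0.26 at 24 h (difference 4.74 ± 0.34, adjusted p = 5.2e-14). Vehicle livers averaged 135.1 in study 3 and 174.1 in study 4. With vehicle of study 3, Acly (0.06), Srebf1 (0.28), Tkt (0.13) and Ddc (0.38) were not called (adjusted p = 0.571 to 0.963).

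**Figure D5:**
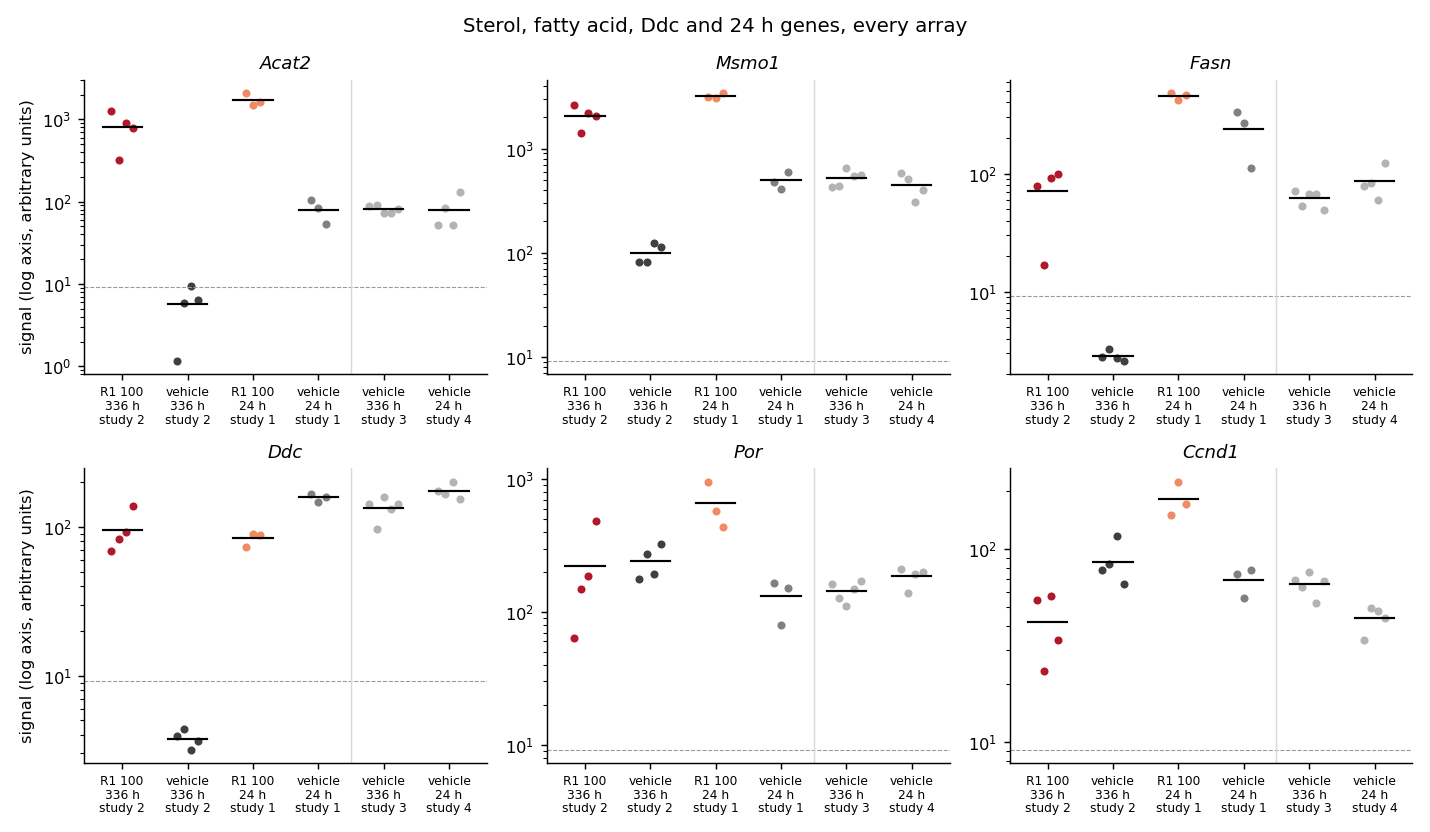
Signal of Acat2, Msmo1, Fasn, Ddc, Por and Ccnd1 on each array (log axis, arbitrary units), with black bars for group means and a dashed line at 9.17. Vehicle livers of study 2 are the lowest group for Acat2, Msmo1, Fasn and Ddc, and R1 100 livers at 24 h are the highest group on average for Por and Ccnd1.

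Another set responded at 24 h and not, or in the other direction, at 336 h. Por, the reductase that feeds electrons to cytochromes P450, had 63.6, 150.1, 187.9 and 485.2 in R1 100 and 177.4, 272.1, 193.9 and 325.1 in vehicle livers at 336 h. At 24 h it had 957.7, 578.2 and 440.4 in R1 100 and 166.4, 79.9 and 151.2 in vehicle livers. The 336 h groups overlapped, with a wide spread under R1 100, and the 24 h groups did not. Effects were -0.44 ± 0.35 and 2.28 ± 0.40, with a difference of -2.72 ± 0.53 (adjusted p = 0.000702, 3 of 3 probe sets). Ccnd1, cyclin D1, which drives entry into the cell cycle, had 54.7, 23.5, 57.1 and 33.7 in R1 100 and 78.3, 83.5, 116.7 and 66.4 in vehicle livers at 336 h, and 150.4, 223.1 and 171.4 in R1 100 and 74.4, 55.9 and 77.6 in vehicle livers at 24 h. It fell at 336 h (-1.03 ± 0.26, adjusted p = 0.00493) and rose at 24 h (1.35 ± 0.30, adjusted p = 0.00251), and the difference of -2.38 ± 0.40 (adjusted p = 8.6e-05, 3 of 5 probe sets) was called with each vehicle and without each array, as was that of Por.

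Proteasome subunits were called higher in R1 100 livers for 2 of 24 genes at 336 h, where 4.95% of all genes were, and for 13 of 24 at 24 h, where 3.19% were. The difference itself was lower for 5 of 24 (median -0.60), where 2.52% of all genes were, and higher for 0, and median effects were 0.22 at 336 h and 0.80 at 24 h. Psmc5, an ATPase of the regulatory particle, averaged 180.3 ± 47.4 in R1 100 and 177.4 ± 13.6 in vehicle livers at 336 h, and 277 ± 16.5 and 138.1 ± 11.3 at 24 h (difference -1.00 ± 0.26, adjusted p = 0.0133). The other called subunits were the ATPases Psmc3 (-1.17 ± 0.31, adjusted p = 0.0133) and Psmc4 (-0.84 ± 0.25, adjusted p = 0.0301), and Psma5 (-0.94 ± 0.25, adjusted p = 0.0173) and Psma1 (-1.00 ± 0.31, adjusted p = 0.0448) of the core particle. In vehicle livers, 6 of the 24 were called higher in study 2 than in study 1, where 6.52% of all genes were. With vehicle of study 3 in place of vehicle of study 2, the difference was called lower for none of the 24, where 113 of 3696 genes were.

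The subunit calls of the difference were near the threshold. Psmc3 lost its call without study 1 R1 100 replicate 1 (adjusted p = 0.0555), and Psma5 without that array, study 2 R1 100 replicate 2 or study 1 vehicle replicate 2 (up to 0.0668). Psmc4 lost it without replicate 2 of any of the 4 groups or study 1 vehicle replicate 1 (up to 0.137), and Psma1 without any 1 array other than study 2 R1 100 replicate 3 and study 2 vehicle replicate 4 (up to 0.104). The number of subunits called ranged from 2 to 6 over these repeats, with 2 without study 2 R1 100 replicate 2, study 1 R1 100 replicate 1 or study 1 vehicle replicate 2, and 3 without replicate 2 of study 2 vehicle or replicate 1 of study 1 vehicle.

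Of 19 heat shock and endoplasmic reticulum chaperones, 6 were lower and 1 higher (median -0.21), where 2.52% of all genes were lower and 2.57% higher. Hsp90ab1, a cytosolic chaperone, averaged 1277 ± 265 in R1 100 and 1759 ± 158 in vehicle livers at 336 h, and 2383 ± 255.2 and 1279 ± 152.6 at 24 h (difference -1.38 ± 0.29, adjusted p = 0.00174, 4 of 4 probe sets). Dnajb1, a co-chaperone of HSP70, averaged 87.8 ± 28.3 and 130.5 ± 35.5 at 336 h, and 184 ± 24.1 and 76.4 ± 4.36 at 24 h (difference -1.81 ± 0.48, adjusted p = 0.0139). Both rose at 24 h, while Hspb1, a small heat shock protein, was called at neither time (difference -2.19 ± 0.53, adjusted p = 0.00678, 2 of 4 probe sets), its vehicle livers lying at 128.5 to 522.1 in study 2 and at 24.3 to 49.5 in study 1. Against vehicle of study 3, Hsp90ab1 was still called (-0.92, adjusted p = 0.0372), Dnajb1 was not (-0.93, adjusted p = 0.242) and Hspb1 turned to 0.11. Without study 1 R1 100 replicate 1, 3 members of the list were called lower.

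Genes that fell at 24 h and not at 336 h gave positive differences. Tsc22d1, a transcriptional regulator induced by TGF-beta, had 166.1, 200.1, 101.7 and 65.6 in R1 100 and 215.9, 76.2, 124 and 360.2 in vehicle livers at 336 h. At 24 h it had 88.3, 53.6 and 93.5 in R1 100 and 1169, 448.9 and 549 in vehicle livers. The fall at 24 h was -3.07 ± 0.50, the 336 h groups overlapped, and the difference was 2.64 ± 0.66 (adjusted p = 0.00917, or 0.0594 without study 1 vehicle replicate 1). Bhmt, which remethylates homocysteine with betaine, averaged 2509 ± 1766 and 1399 ± 132.9 at 336 h, and 1966 ± 510.1 and 4667 ± 453 at 24 h (difference 1.86 ± 0.44, adjusted p = 0.00496). Neither was called with vehicle of study 3 (0.87 and 0.49, adjusted p = 0.478 and 0.579).

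Drug metabolism genes outside these groups mostly showed no called difference. Of 18 CAR and PXR targets, 10 were called higher at 336 h and 11 at 24 h, where 4.95% and 3.19% of all genes were. The difference was called higher for 1 and lower for 3 (median 0.25), where 2.57% and 2.52% of all genes were. The lower ones included Por and Cyp2c7. Cyp3a18, a testosterone hydroxylase, averaged 2130 ± 477.6 in R1 100 and 661.8 ± 84.7 in vehicle livers at 336 h, and 1859 ± 380.3 and 591.9 ± 112.9 at 24 h. The levels of both studies nearly coincided, and the difference of 0.02 had an interval of -0.62 to 0.66. Slco1a4, an uptake transporter of organic anions (difference 0.65, interval -0.19 to 1.49), and Cyp2b2, a CAR target (difference 1.02, interval 0.10 to 1.95, adjusted p = 0.235), were not called either. Against vehicle of study 3 the difference of Cyp2b2 was called higher (2.09, adjusted p = 0.00198), and against vehicle of study 4 it was -0.68 (adjusted p = 0.392). Cyp3a23-3a1, the main drug-inducible P450 of its family, lay at 11270 to 12597 in R1 100 livers at 336 h and 10952 to 12071 at 24 h, near the top of the common scale, and its difference of 0.90 ± 0.26 (adjusted p = 0.0298, 1 of 4 probe sets) came with a vehicle level of 1470 ± 507 in study 2 and 2530 ± 361.9 in study 1. That call ended without 8 of the 14 arrays in turn: replicates 1 or 2 of either R1 100 group, any of replicates 1 to 3 of study 2 vehicle, or replicate 2 of study 1 vehicle (adjusted p up to 0.119). Cyp3a and Cyp2b genes share sequence, so these values are uncertain as to the member.

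Abcc3, an efflux pump of conjugates, rose at both times, by 3.03 ± 0.33 and 1.49 ± 0.38. It averaged 55.4 ± 8.1 in R1 100 and 4.54 ± 2.39 in vehicle livers at 336 h, and 10.6 ± 2.36 and 1.91 ± 0.828 at 24 h, and the difference of 1.54 missed the threshold (interval 0.52 to 2.57, adjusted p = 0.0665). It was called higher with vehicle of study 4 (2.18, adjusted p = 0.00199) and with both vehicles replaced (1.76, adjusted p = 0.0108), and not with vehicle of study 3 (1.12, adjusted p = 0.175). Of 13 NRF2 targets, 2 were higher (Gstp1 and Tkt) and 0 lower, where 2.57% and 2.52% of all genes were. The list's median difference was 0.05, with median effects of 1.12 at 336 h and 1.15 at 24 h. Gclc, the catalytic subunit for glutathione synthesis, was 71.3 ± 30.4 in R1 100 and 52.2 ± 8.7 in vehicle livers at 336 h, and 146 ± 18.7 and 54.1 ± 4.94 at 24 h, with close vehicle levels and a difference of -1.02 (interval -1.69 to -0.34, adjusted p = 0.0691). Gclc was called lower with vehicle of study 3 (-1.19, adjusted p = 0.0177) and with both vehicles replaced (-0.93, adjusted p = 0.0462), and not with vehicle of study 4 (-0.76, adjusted p = 0.137). Gsr, glutathione reductase, and Hmox1, heme oxygenase 1, rose at both times, and their differences were -0.39 (interval -1.04 to 0.27) and -0.71 (interval -1.54 to 0.13). Cyp17a1, a steroid hydroxylase, fell at both times, with effects of -3.96 and -2.69, and its difference of -1.28 had an interval of -2.60 to 0.04. The direction of the Cyp17a1 difference depended on the vehicle: it was called higher with vehicle of study 3 (2.31, adjusted p = 0.0178), called lower with vehicle of study 4 (-2.42, adjusted p = 0.00812) and not called with both (1.17, adjusted p = 0.222).

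The difference of effects at 30 mg/kg/day, (R1 30 minus vehicle in study 3, 336 h) minus (R1 30 minus vehicle in study 1, 24 h), shares the vehicle livers of study 1 with the 100 mg/kg/day difference, so the 2 are given side by side only. It was called for 61 of 6361 probe sets (0.959%) and 35 genes (0.947%), 0.514% of genes being higher and 0.433% lower. Without study 1 vehicle replicates 1 or 2 in turn, 30 and 35 probe sets were called. Ggt1 differed by 4.40 ± 0.39, Gstp1 by 3.41 ± 0.37, Gsta3 by 2.53 ± 0.60 and Gsta4 by 1.96 ± 0.27 (adjusted p = 2.21e-10, 1.53e-08, 0.0194 and 8.74e-06). Ggt1 reached 74.8 to 125.5 in R1 30 livers of study 3 and 44.1 to 105.5 in R1 20 livers of study 2. Cyp2b2 (2.23 ± 0.45, adjusted p = 0.00466) and Abcc3 (2.12 ± 0.50, adjusted p = 0.0183) were also called higher. Of 18 CAR and PXR targets, 3 were called higher and 1 lower at 30 mg/kg/day. Apoa4 (-2.83 ± 0.60), Cyp2c7 (-1.54 ± 0.32) and Socs2 (-2.94 ± 0.73) were called lower, and Msmo1 was lower too, at -1.34 ± 0.32 (adjusted p = 0.02). Fabp4 (-0.69 ± 0.68), Obp3 (-1.14 ± 0.67), Plin2 (-0.43 ± 0.36), Eci1 (0.52 ± 0.29) and Ech1 (0.01 ± 0.24) were not called, and none of the 29 fat oxidation genes was. Sri reached 123.3 to 152.6 in R1 30 livers at 336 h, against 34.9 to 53.6 in their vehicle livers, but its difference of 0.93 ± 0.36 was not called (adjusted p = 0.297).

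Markers of other cell types gave few called differences of effects: of 9 bile duct markers 1 was higher, of 6 neutrophil and mast cell markers 1 was lower, and none of the 5 Kupffer, 6 endothelial, 9 stellate, 10 lymphocyte and 4 red cell markers had one. No marker was listed at 0. Of all genes, 2.57% had a higher and 2.52% a lower difference. The summed bile duct markers were 1688 to 2717 in R1 100 and 1385 to 1811 in vehicle livers at 336 h, and 1488 to 1762 in R1 100 and 991.4 to 1151 in vehicle livers at 24 h. Stellate and fibroblast markers were 429.1 to 603.9 in R1 100 and 618.5 to 873.7 in vehicle livers at 336 h, and 694.6 to 973.1 and 734.6 to 935.6 at 24 h. Lymphocyte markers were 128.4 to 151.4 in R1 100 and 173.3 to 220.1 in vehicle livers at 336 h, and 142.1 to 171.8 and 150.1 to 183.4 at 24 h. Red cell markers were 3392 to 7334 in R1 100 and 8376 to 11214 in vehicle livers at 336 h, and 6747 to 9556 and 7343 to 8574 at 24 h. Stellate, lymphocyte and red cell sums were thus lower in R1 100 than in vehicle livers with no overlap at 336 h. They overlapped at 24 h. Singly, 0 of 9 stellate (median effect -0.09), 2 of 10 lymphocyte and 1 of 4 red cell markers were called lower at 336 h, and 0 higher. Of all genes, 5.01% were called lower and 4.95% higher at 336 h. Bile duct sums overlapped at 336 h and were higher in R1 100 livers with no overlap at 24 h. A sum follows its brightest members: of the 9 bile duct markers, 2 were called higher and 1 lower at 24 h (median effect -0.22). Of all genes, 3.19% were called higher and 2.79% lower at 24 h. Neutrophil and mast cell markers summed to 65.3 to 145.2 in R1 100 and 69.5 to 161.8 in vehicle livers at 336 h, and to 85.2 to 180.6 in R1 100 and 45.6 to 65.6 in vehicle livers at 24 h, so they were separated at 24 h only. Hepatocyte markers, 11 genes, were lower in R1 100 livers with no overlap at both times, at 60978 to 63308 against 63714 to 67126 in vehicle livers at 336 h, and 63121 to 64257 against 67594 to 68410 in vehicle livers at 24 h. Of the 11 hepatocyte markers, 1 was called higher and 1 lower at 336 h, and 0 higher and 1 lower at 24 h. Of the 6 neutrophil and mast cell markers, 1 was called higher and 0 lower at 24 h. The part of the marker sums in the results above was not tested.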

How the data were processed

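RNA from 44 rat livers of 4 studies was measured on Affymetrix rat arrays. The deposited values are probe set intensity values made by the authors with MAS5, per the submitters' processing notes, in a version not given in the sources used here. The sorted values of all arrays were identical (largest difference 0.0), as after quantile normalisation, which the labels do not mention, so values are relative within an array. No detection calls were used here.

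Intensity was set to log2(signal + 2.89), the offset being percentile 20 of the deposited values. Of 8799 probe sets, 59 controls were left out, 7006 had 1 gene symbol, 308 several and 1426 none. A probe set was tested if its highest group mean reached 9.17 (percentile 40), which 6361 did, covering 3696 genes with the brightest probe set standing for each. All 44 arrays in 11 groups were fitted with limma 3.58.1 (R 4.3.3, mean-variance trend, 33 residual degrees of freedom). p-values were adjusted by Benjamini-Hochberg within each of 6 comparisons, and intervals are 95% and unadjusted. The number of arrays limits the precision. Fits were tested on simulated data, where 21% of 2-fold and 67% of 4-fold differences of effects were called. Of 93 simulated calls, 5 were false. A gene that was not called may thus still differ. Figures were drawn with matplotlib 3.10.9.

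The comparison, gene lists, named genes and alternatives were chosen with earlier results of these data known. The alternatives were other offsets, filters, normalisations, moderation, array weights, a replicate block, means over probe sets, leaving out each of 14 arrays, and the vehicles of studies 3 and 4. Using both of those vehicles together was added after seeing the data. Genes described in the text were taken from those named by size of the difference, by list membership and by class of response, and some were added after their values were seen. Some results are not reported here.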

Additional observations from a re-analysis of the deposited data

Results flagged for a closer look

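The effect of R1 100 differed between 336 h and 24 h, by limma's test of the difference itself, for 337 probe sets and for 47 of the 62 genes described above. The differences, 336 h minus 24 h, were as follows. Fat oxidation genes differed by -6.40 (Acot2), -4.59 (Acot1), -4.41 (Eci1), -4.00 (Ephx2), -3.82 (Ech1), -3.51 (Cyp4a1), -3.48 (Hacl1), -3.22 (Cpt1a) and -3.03 (Ehhadh). Lipid carriers and droplet genes differed by 3.72 (Fabp4), 2.70 (Fabp5), -2.67 (Apoa4) and -2.40 (Plin2). Glutathione genes and Sri differed by 4.33 (Ggt1), 3.46 (Gsta3), 2.52 (Sri), 2.36 (Gstp1), 1.89 (Gsta4), 1.14 (Gstk1) and 1.06 (Mgst2). Sterol and fatty acid synthesis genes and Tkt differed by 2.45 (Acly), 2.38 (Fasn), 2.11 (Acat2), 1.86 (Srebf1), 1.63 (Msmo1), 1.50 (Tkt), 1.34 (Fdps) and 1.11 (Fdft1).

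Genes of male-typical expression and the growth hormone axis differed by -4.53 (Obp3), -3.17 (Socs2), -3.13 (Cyp2c11) and -1.63 (Igfbp3). Proteasome subunits and chaperones differed by -2.19 (Hspb1), -1.81 (Dnajb1), -1.38 (Hsp90ab1), -1.17 (Psmc3), -1.00 (Psma1 and Psmc5), -0.94 (Psma5) and -0.84 (Psmc4). Ddc (4.74), Tsc22d1 (2.64), Bhmt (1.86), Cyp3a23-3a1 (0.90), Cyp2c7 (-2.19), Por (-2.72) and Ccnd1 (-2.38) complete the genes.

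Replicate 2 of the R1 100 livers at 336 h lay far below the other 3 arrays of its group for Fasn (signal 16.8), Psmc4 (194.2) and Hmox1 (141). These were 3 of 124 gene and group pairs examined, where chance gives about 5 percent.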

How the results depend on the processing

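Other vehicles were tried for the 100 mg/kg/day difference, its gene lists and its genes. With vehicle of study 4 at 24 h the difference was called for 674 probe sets, with vehicles of studies 3 and 4 for 775, and with vehicle of study 3 for 454. List members called in the direction of the main fit were counted with vehicle of study 3 and then with both. They numbered 8 and 5 for fat oxidation, 0 and 0 for cholesterol synthesis before squalene and 0 and 0 for fatty acid synthesis. For the proteasome they numbered 0 and 2 and for chaperones 3 and 1, and glutathione transferases numbered 10 with vehicle of study 4. Of all 3696 genes, 132 were called higher and 113 lower with vehicle of study 3. With both replaced 217 were higher and 184 lower, and with vehicle of study 4 200 were higher and 165 lower. The sign turned with vehicle of study 3 for Acot1 (0.05), Ech1 (0.18), Cpt1a (0.06), Acat2 (-1.29), Fdps (-0.61), Fdft1 (-0.53), Msmo1 (-0.73), Sqle (-1.83), Cyp51 (-1.47), Fasn (-1.10), Hspb1 (0.11), Cyp3a23-3a1 (-0.43), Cyp17a1 (2.31) and, called in neither case, Idi1 (-1.48), Slco1a4 (-0.59), Cyp3a18 (-0.50), Igfals (-0.60) and Car3 (-2.21). With both vehicles it turned for Acot1 (0.20), Acat2 (-1.35), Fdps (-0.69), Fdft1 (-0.71), Msmo1 (-0.90), Sqle (-1.48), Cyp51 (-2.10), Fasn (-2.44), Acly (-0.46), Srebf1 (-0.01), Tkt (-0.20), Psma1 (0.24), Hspb1 (0.74), Cyp3a23-3a1 (-0.60), Slco1a4 (-1.20) and, called in neither case, Cyp17a1 (1.17), Idi1 (-0.97), Cyp3a18 (-0.01), Igfals (-0.85) and Car3 (-1.91). With vehicle of study 4 it turned, uncalled, for Cyp2b2 (-0.68) and Igfals (-0.23). The cause was not tested.

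Means over probe sets of a gene, which test fewer features, gave 185 genes for the difference, 403 at 336 h, 231 at 24 h, 529 between vehicles and 619 between R1 100 groups. Weighting arrays by quality gave 633 at 24 h, and a fit of the 4 groups only called 3 chaperones. Leaving out each array gave 237 to 371 probe sets for the difference, 546 to 662 at 336 h, 263 to 424 at 24 h, 598 to 917 between vehicles, 667 to 987 between R1 100 groups and 30 to 67 for the 30 mg/kg/day difference. Called members then numbered 19 to 21 for fat oxidation, 5 to 6 for glutathione transferases, 2 to 3 for cholesterol synthesis before squalene, 2 to 4 for fatty acid synthesis, 2 to 6 for the proteasome and 3 to 7 for chaperones. The lowest counts came without study 1 vehicle replicate 1 at 24 h (263) and at 30 mg/kg/day (30), without study 1 vehicle replicate 2 between vehicles (598), and without study 1 R1 100 replicate 1 for chaperones (3). Of 47 called genes, 39 kept their call without each array, and 41 in every setting other than leaving out arrays or changing vehicles. With the replicate number as a block 327 probe sets were called. Same-numbered arrays of a study deviated together only weakly, at -0.05 to 0.11, and no label states that they share more than a number. Signals near 9.17 or below limit the size of a change.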
